A study of Mus musculus with 6 samples.

Results

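The fibulins and the other genes of elastic fibres were examined in the carotid bodies of 2 inbred mouse strains. The carotid body is a small organ beside the carotid artery, and its type I cells sense low oxygen. The genes were taken by name: every probe set whose platform annotation gives Fbln1, Fbln2, Fbln5, Efemp1, Efemp2, Eln, Fbn1, Fbn2, Mfap4 or Mfap5 as its only gene. This gave 15 of the 45101 probe sets of the array, for 8 of the 10 genes. Efemp2 and Fbn1 were not analysed here.

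Total RNA came from carotid bodies of male mice at 28 days of age, of the strains A/J and DBA/2J from the Jackson Laboratory, with no treatment. Each of the 6 Affymetrix Mouse 430 2.0 arrays measured 1 pool. For A/J these were 40, 42 and 38 organs, taken from 20, 21 and 19 mice. For DBA/2J they were 38, 36 and 38 organs, taken from 19, 18 and 19 mice. A p-value therefore measures the spread between pools, and with whole organs, fewer cells of a type and less RNA per cell cannot be told apart. The study compared the organ between the strains.

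Elastic fibres let arteries and loose connective tissue recoil. They consist of a core of cross-linked elastin laid on a scaffold of microfibrils, which are built mainly from fibrillins with microfibril-associated proteins. Fibulins are secreted glycoproteins with repeats like those of epidermal growth factor, and several of them carry elastin to the microfibrils or bind it to cell surfaces, while lysyl oxidases join the elastin chains.

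Precision is limited by having 3 arrays per strain. Median signals lay between 163.6 and 183. DBA/2J arrays 2 and 3 had a Pearson correlation of 0.939 with each other, over log2 values of probe sets, while their highest with an A/J array was 0.941 for array 2 and 0.943 for array 3. Array 2 was the lowest of the 3 DBA/2J arrays in 13 of the 15 member probe sets, and for several of these the value without it is given. The share over all probe sets was not counted, so whether this is particular to these genes was not tested. Without array 2, 1338 of all tested probe sets were called, against 883 with all 6 arrays. Markers of the type I cell were read beside the tissue label. Of 15 measured markers, 9 rose in DBA/2J and 0 fell, and Th, tyrosine hydroxylase, had a signal between 2760 and 8416 on all 6 arrays. In A/J the marker means ran from 107.8 (Slc18a1) to 11123 (Ddc). A difference between the strains does not check a label that both share.

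Fbln2 was the single member whose difference passed the test, and it was higher in DBA/2J. On the brightest probe sets of Fbln1 and Fbln5 every DBA/2J array was above every A/J array, but neither passed the threshold, and Efemp1 overlapped between the strains. Elastin, fibrillin 2 and the microfibril-associated proteins did not pass on any tested probe set, and their 95% intervals include 0. Each log2 difference is the DBA/2J mean less the A/J mean of log2(signal + 16), tested with limma, with p adjusted by Benjamini-Hochberg over 27022 probe sets and a threshold of 0.05. Of the 13 member probe sets bright enough to be tested, 1 was called higher (7.69%) and 0 lower, while 3.27% of all tested probe sets were called, 1.86% higher and 1.41% lower. At an unadjusted limma p under 0.05 there were 4 of the 13, beside 15.3% of all tested probe sets. The strains' arrays did not overlap in 4 of the 13 (30.8%), all higher in DBA/2J, beside 11.5% of all tested probe sets higher and 9.54% lower. Both Fbln5 probe sets are among the 4. The dimmer of them, 1446377_at, averaged 78.7 on the A/J arrays, under the signal of 114.1 needed to be tested. Its DBA/2J mean was 183.1, so it was kept through its DBA/2J values. The same probe set counts at the unadjusted limma p under 0.05 and in the series' rule given below. The 2 member probe sets under the filter and so not tested, of Fbln2 and Fbn2, did not overlap either and were lower in DBA/2J. The Fbn2 one averaged 189.2 in A/J and 48.3 in DBA/2J, so it was left out through its DBA/2J values. The direction of the non-overlapping probe sets counted among the 13 therefore depends in part on the filter. By the rule the series states (at least 6 of 9 array pairs at 1.5-fold, with limma's unadjusted p under 0.05), 2 of the 13 were higher, from Fbln2 and Fbln5, beside 5.23% of all higher and 4.86% lower.

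**Figure D1:**
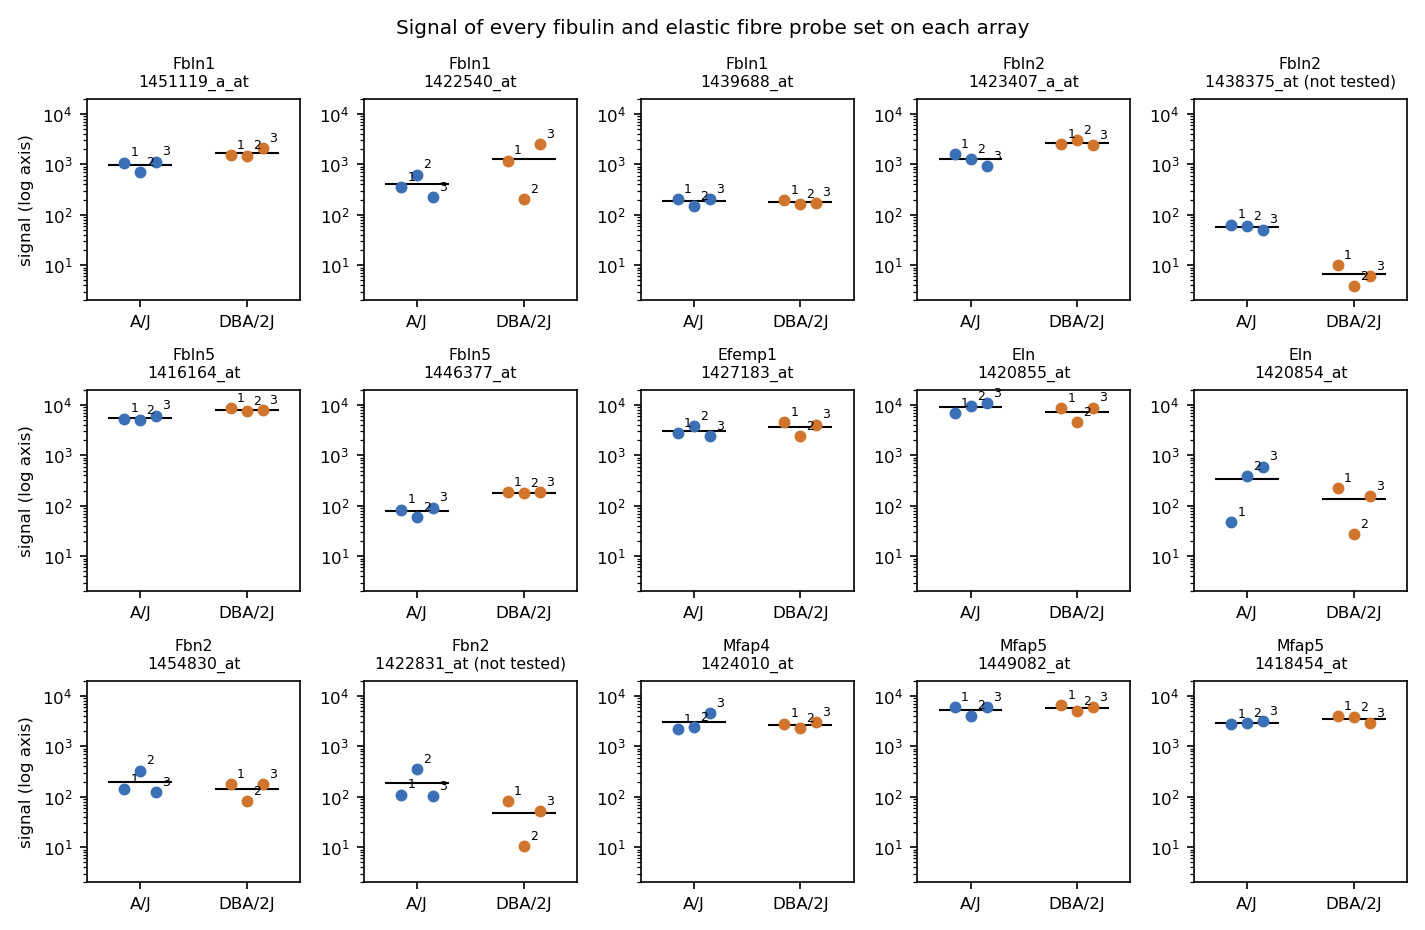
Signal of each of the 15 member probe sets (log axis) on the 3 A/J and 3 DBA/2J arrays, numbered within a strain, with the strain mean as a line. The bright Fbln2 probe set lies between 937.9 and 1606 in A/J and between 2433 and 3040 in DBA/2J, while both Eln probe sets overlap between the strains.

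Fbln2 encodes fibulin 2, a fibulin of basement membranes, vessel walls and embryonic mesenchyme that binds fibrillin and other matrix proteins. Its bright probe set, 1423407_a_at, read 1606, 1282 and 937.9 on A/J arrays 1 to 3 and 2572, 3040 and 2433 on DBA/2J arrays 1 to 3. The lowest DBA/2J array was above the highest A/J array, and each of the 9 array pairs differed by at least 1.5-fold. The means were 1275 ± 334 and 2681 ± 318 (SD, n = 3 arrays each), a ratio of 2.10, with a log2 difference of 1.09 (SE 0.23, 95% interval 0.58 to 1.60, limma adjusted p = 0.0349).

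The Fbln2 call lay close to the threshold. The log2 difference stayed between 0.89 and 1.27 when 1 array was left out. Leaving out A/J array 1, the limma adjusted p was 0.0423. It was 0.0855 without A/J array 2 and 0.128 without A/J array 3. Leaving out DBA/2J arrays 1, 2 and 3 in turn gave 0.133, 0.0521 and 0.0781. Some array titles share a number, and within the pairs of arrays with the same number the log2 difference was 1.24 and 1.36. With that number as a fixed block it was 1.30, with a limma adjusted p of 0.258. That fit takes its difference only from these pairs and leaves little to estimate the spread from. It called 0 of all 27022 probe sets, so a call lost there is not particular to a gene.

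A second probe set of Fbln2, 1438375_at, ran the other way. It read 63.9, 59.8 and 50.6 in A/J and 10, 3.8 and 6.1 in DBA/2J, with no overlap. Its mean lay under the filter on dim probe sets, which kept those whose mean log2 value corresponds to a signal of 114.1 or more. Its log2 difference was -1.72, and with no filter the limma adjusted p was 0.0124. It was -3.03 with a pseudocount of 1 and -0.79 with a pseudocount of 64. Whether so dim a probe set was above background is unknown, and which of the 2 probe sets follows the Fbln2 transcript was not tested.

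Fibulin 7, encoded by Fbln7, is a cell adhesion protein of the same family that is not among the 10 genes. It is given here because it was the other fibulin to pass the test. Its probe set 1460412_at read 570.7, 832.9 and 645.1 in A/J and 2087, 1536 and 1883 in DBA/2J. Every DBA/2J array was above every A/J array. The means were 683 ± 135 and 1835 ± 279 (SD, n = 3), with a log2 difference of 1.41 (SE 0.21, limma adjusted p = 0.00835). The call was lost without DBA/2J array 1 (1.31, limma adjusted p = 0.0590) and with the title number as a fixed block (1.20, limma adjusted p = 0.389), and held without each of the other 5 arrays. Within the pairs of arrays that share a number the log2 difference was 0.87 and 1.52.

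The promoters of Fbln2 and Fbln7 are shown because these were the fibulins called higher. The windows are the 250 bases before the transcript start in RefSeq (build GRCm38.p6), read 5′ to 3′ on the gene's strand. They are at chr6:91212514-91212763 for Fbln2 and chr2:128863682-128863931 for Fbln7, both on the + strand. The sequence is that of the reference strain C57BL/6J, so bases at which A/J or DBA/2J differ from it do not show. Capitals mark matches, on either strand, to a TATA box (TATAAA), a GC box (GGGCGG), an AP-1 site (TGACTCA) or a SMAD CAGA box (CAGACA).
Fbln2: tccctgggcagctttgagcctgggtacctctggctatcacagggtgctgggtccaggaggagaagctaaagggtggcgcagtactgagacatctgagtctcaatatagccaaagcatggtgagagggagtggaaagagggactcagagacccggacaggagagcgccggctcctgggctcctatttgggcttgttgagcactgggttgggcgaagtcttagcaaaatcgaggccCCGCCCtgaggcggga
Fbln7: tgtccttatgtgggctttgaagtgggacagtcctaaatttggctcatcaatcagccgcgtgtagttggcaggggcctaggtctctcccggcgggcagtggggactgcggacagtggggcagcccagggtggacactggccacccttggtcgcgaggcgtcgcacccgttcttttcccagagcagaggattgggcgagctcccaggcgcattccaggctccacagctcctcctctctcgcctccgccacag
The Fbln2 window held 1 match, a GC box on the other strand, and the Fbln7 window held 0 matches to the 4 motifs. Among 32851 RefSeq windows of the same length, 32.7% held the GC box, 12.4% the TATA box, 4.46% the AP-1 site and 17.1% the SMAD box. The windows were rich in G and C, at 58.8% for Fbln2 and 63.2% for Fbln7, with a median of 52.4% over all windows.

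Fbln5 encodes fibulin 5, which binds elastin and integrins and is needed in mice to assemble elastic fibres. Its bright probe set, 1416164_at, read 5372, 5097 and 6179 in A/J and 8703, 7516 and 7833 in DBA/2J. The strains did not overlap, and the means were 5549 ± 562 and 8017 ± 614 (SD, n = 3). The log2 difference of 0.53 (SE 0.15, 95% interval 0.19 to 0.88) did not pass (limma adjusted p = 0.117). It passed with quantile normalization (0.65, limma adjusted p = 0.0356) and with array weights (0.57, limma adjusted p = 0.0221), and in none of the other 16 of 18 alternatives. With 1 array left out it ran from 0.47 to 0.61, with a limma adjusted p from 0.0969 to 0.389. The dimmer probe set 1446377_at read 84, 60.3 and 91.8 in A/J and 187.3, 176.5 and 185.6 in DBA/2J, again with no overlap. Its log2 difference was 1.09 (SE 0.25), just outside the threshold (limma adjusted p = 0.0516), and it ran from 0.80 with a pseudocount of 64 to 1.23 with a pseudocount of 1.

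Fbln1 encodes fibulin 1, the first fibulin described, found in blood plasma and in elastic matrix and made in several splice forms. Its 3 probe sets disagreed. 1451119_a_at read 1093, 716 and 1134 in A/J and 1518, 1501 and 2139 in DBA/2J, with no overlap, and its log2 difference of 0.81 (SE 0.24, 95% interval 0.26 to 1.35) did not pass (limma adjusted p = 0.131).

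The Fbln1 probe set 1422540_at was spread widely, with 357.3, 631.5 and 223.4 in A/J and 1192, 204.6 and 2532 in DBA/2J. DBA/2J array 2 was below all 3 A/J arrays while the other DBA/2J arrays were above them. The log2 difference was 1.18 (SE 0.76, limma adjusted p = 0.543), and without DBA/2J array 2 it was 2.18 and passed (limma adjusted p = 0.0220). Without DBA/2J array 3 it was 0.42. The third, 1439688_at, lay between 150.1 and 207.8 in A/J and between 164.4 and 194.6 in DBA/2J, for a log2 difference of -0.06 (95% interval -0.57 to 0.45). Which probe set reads which Fbln1 splice form was not tested.

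Efemp1 encodes fibulin 3, a short fibulin of basement membranes and fascia. Its probe set 1427183_at read 2817, 3848 and 2459 in A/J and 4522, 2407 and 4083 in DBA/2J. DBA/2J array 2 was the lowest of all 6 arrays and the strains overlapped. The log2 difference was 0.24 (95% interval -0.36 to 0.85, limma adjusted p = 0.752), and 0.52 (limma adjusted p = 0.232) without DBA/2J array 2.

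**Figure D2:**
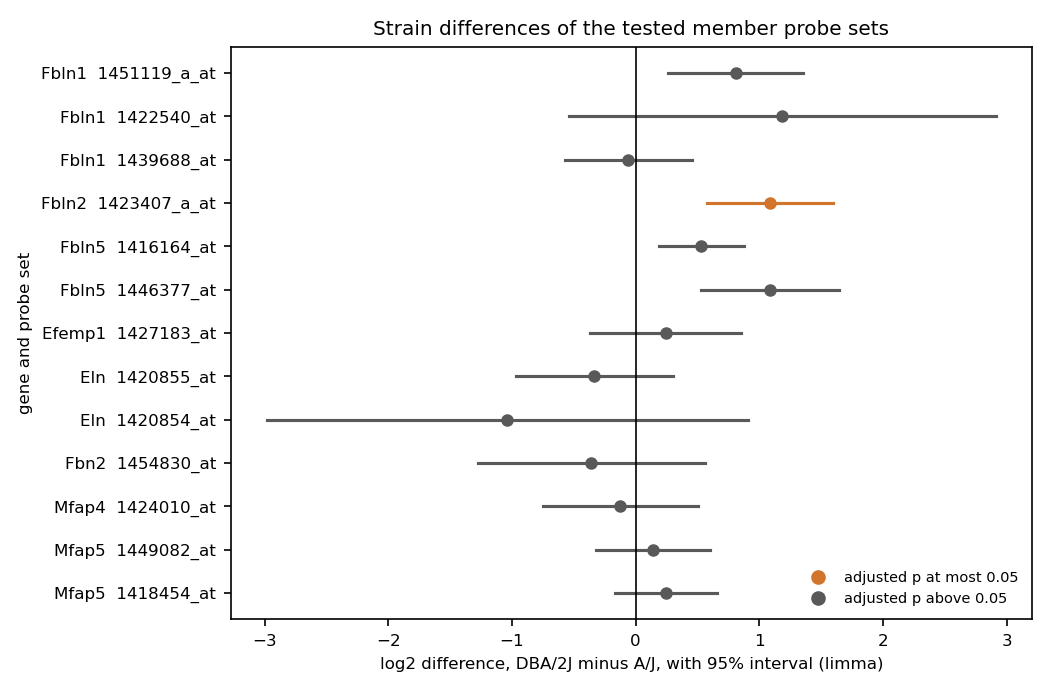
Log2 difference (DBA/2J minus A/J) of the 13 tested member probe sets with its 95% interval from limma. The interval of Fbln2 runs from 0.58 to 1.60, and those of the Eln, Fbn2, Mfap4, Mfap5 and Efemp1 probe sets cross 0.

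Eln encodes tropoelastin, the monomer of the elastic core. Its bright probe set, 1420855_at, read 6814, 9406 and 10792 in A/J and 8624, 4515 and 8861 in DBA/2J. The values overlapped, and DBA/2J array 2 was again the lowest. The means of 9004 ± 2019 and 7333 ± 2443 (SD, n = 3) gave a log2 difference of -0.33 (SE 0.28, 95% interval -0.97 to 0.30, limma adjusted p = 0.665). Without DBA/2J array 2 it was -0.017. The second Eln probe set, 1420854_at, was dimmer and more variable, with 47.3, 384.6 and 599.3 in A/J and 225.2, 27.4 and 156.8 in DBA/2J. Its log2 difference was -1.04 with a 95% interval from -2.98 to 0.91 (limma adjusted p = 0.660), and without DBA/2J array 2 it was -0.29.

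Fbn2 encodes fibrillin 2, the fibrillin made mostly in development, which forms microfibrils together with fibrillin 1. Both of its probe sets were dim. 1454830_at read 142.7, 329.5 and 124.7 in A/J and 179.5, 81.7 and 176.2 in DBA/2J, for a log2 difference of -0.36 (95% interval -1.27 to 0.56, limma adjusted p = 0.760). That value rested on A/J array 2, the highest of all, without which it was 0.046, and on DBA/2J array 2, the lowest, without which it was -0.028. 1422831_at fell under the filter through its low DBA/2J values. It read 110.5, 352.4 and 104.8 in A/J and 82.5, 10.5 and 51.9 in DBA/2J, and the highest DBA/2J array was below the lowest A/J array.

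Mfap5 encodes the microfibril-associated glycoprotein MAGP-2, which binds fibrillin. Neither of its 2 probe sets passed, and the strains overlapped on both. 1449082_at read 6131, 4093 and 5995 in A/J and 6707, 4962 and 6068 in DBA/2J (log2 difference 0.14, 95% interval -0.32 to 0.61, limma adjusted p = 0.823). 1418454_at read 2794, 2881 and 3179 in A/J and 3942, 3786 and 2864 in DBA/2J (log2 difference 0.25, 95% interval -0.16 to 0.66, limma adjusted p = 0.613).

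Mfap4, a fibrinogen-related protein found with elastic fibres in vessel walls, had 2236, 2448 and 4664 in A/J and 2852, 2304 and 3005 in DBA/2J on probe set 1424010_at. A/J array 3 stood above the other 5 arrays. The log2 difference was -0.12 (95% interval -0.75 to 0.51, limma adjusted p = 0.896), and without A/J array 3 it turned to 0.21 (limma adjusted p = 0.788).

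The other genes of the pathway were counted once each, by their brightest probe set. Of 48 genes listed by role, 39 were tested, and 1 rose, 1 fell and 37 did not pass. Over all 13006 genes tested, 2.17% were called higher and 1.60% lower. The median log2 difference of the 39 genes was -0.04, beside 0.19 for the 8 members and 0.03 for all genes. Among the members, 5 were higher and 3 lower in sign.

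The first 3 lists hold cross-linking enzymes, latent TGF-beta binding proteins and other microfibril and elastic fibre proteins, and leave out the members. In these lists Fbln7 alone passed the test. Of 4 lysyl oxidases tested, 0 passed in limma and 0 had an unadjusted p under 0.05. Lox, the main cross-linking enzyme, read 2572, 3364 and 3807 in A/J and 4575, 2903 and 4328 in DBA/2J (log2 difference 0.27, limma adjusted p = 0.673). Loxl3 had -0.15. The 4 genes named as latent TGF-beta binding proteins ran from 0.12 to 0.24 on their brightest probe sets. Of these 0 passed in limma, with 0 at an unadjusted p under 0.05. Ltbp3 had 0.17 and Ltbp2 0.15, while a dimmer Ltbp3 probe set had 0.70 (limma adjusted p = 0.151). Of 12 genes listed as other proteins of microfibrils and elastic fibres, Fbln7 rose and 11 did not pass, of which Mfap2 had 0.64 and Hmcn1 0.55. A dimmer Mfap2 probe set had -0.29 (limma adjusted p = 0.657). Emilin1 had -0.10, with 1036, 26.6 and 1085 on DBA/2J arrays 1 to 3, and was called higher without DBA/2J array 2. Mmrn2, an endothelial relative of the emilins, averaged 2665 ± 276 (A/J) and 3603 ± 296 (DBA/2J; SD, n = 3), for a log2 difference of 0.43 and a limma adjusted p of 0.247.

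The genes that degrade elastic fibres or signal through them showed 1 difference that passed. Of 7 elastin-degrading proteases, 0 passed in limma and 0 had an unadjusted p under 0.05, with log2 differences from -0.40 (Mmp9) to 0.04. Mmp7 had -0.33. Of 6 TGF-beta ligands and receptors, 0 passed and 0 had an unadjusted p under 0.05. Tgfb3 had 0.44 (limma adjusted p = 0.392) and Tgfb1 -0.13.

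Of 6 integrin subunits that bind fibulins or fibrillins, 1 fell, 0 rose and all 6 were lower in sign on their brightest probe set, with a median of -0.40, beside 47% of all genes lower in sign. For Itgb5 the sign depended on the probe set: the brightest had -0.04, and the other 3 of its 4 tested probe sets were higher in DBA/2J, at 0.29, 0.56 and 0.81 (lowest limma adjusted p = 0.272). The one that fell was Itgb3, the beta 3 subunit, which pairs with alpha v as a receptor for matrix proteins that carry the RGD sequence. It read 418.9, 915.1 and 663.4 in A/J and 192.8, 134.5 and 234.6 in DBA/2J on probe set 1455257_at. Every DBA/2J array was below every A/J array, and the log2 difference was -1.71 (SE 0.31, limma adjusted p = 0.0196). The call was lost without A/J array 2 (-1.45, limma adjusted p = 0.0631), A/J array 3 (-1.68, limma adjusted p = 0.0881) or DBA/2J array 1 (-1.74, limma adjusted p = 0.0842), and with the title number as a fixed block (-2.03, limma adjusted p = 0.199). Itga9 had a log2 difference of -0.94 (limma adjusted p = 0.192), and its other probe set had -0.09.

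**Figure D3:**
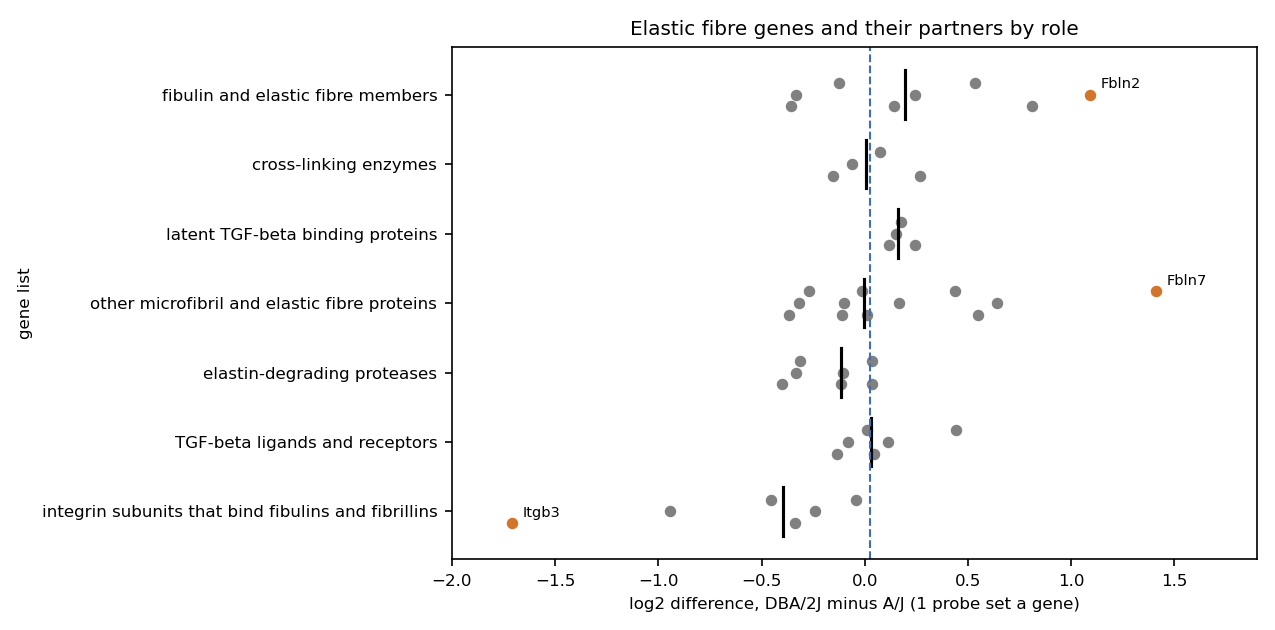
Log2 difference (DBA/2J minus A/J) of each tested gene, 1 probe set a gene, by role, with the median of each list as a black bar and the median of all genes (0.03) as a dashed line. Genes past the threshold are named and orange: Fbln2 at 1.09, Fbln7 at 1.41 and Itgb3 at -1.71.

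The genes with profiles nearest to Fbln2 were found by the Euclidean distance of log2 values, centred on each gene's own mean, over the 6 arrays. They were Hexim2 (distance 0.30), Fgf12 (0.33), Ly6k (0.37), Slfn8 (0.39) and Ctla2a (0.40), with a median distance of 1.58 over all genes. Of these, Fgf12, a fibroblast growth factor homologous factor that acts inside neurons, rose by a log2 difference of 1.18 (limma adjusted p = 0.0158), and Slfn8 by 1.12 (limma adjusted p = 0.0424). The member nearest to Fbln2 was Fbln5 on its dim probe set, at 0.80, and the bright Fbln5 and Fbln1 probe sets lay at 1.04 and 1.06. These distances are descriptions.

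Markers of other cell types moved with the strains, and they are given beside the fibulin values. Fibroblasts and smooth muscle make most elastic fibre proteins. Of 12 fibroblast markers, 1 rose (Tcf21, a transcription factor of mesenchymal cells, log2 difference 1.36), 0 fell and 11 did not pass, with a median of -0.15. Their summed signal was 125241 to 130939 on A/J arrays and 97598 to 127679 on DBA/2J arrays, which overlap. Of 12 smooth muscle and pericyte markers 0 passed in limma, 3 had an unadjusted p under 0.05, and the summed signals overlapped, at 55780 to 66357 on A/J arrays and 50646 to 65817 on DBA/2J arrays. Such sums mostly follow the brightest markers and do not measure the number of cells. Dcn, the brightest fibroblast marker, averaged 24598 in A/J and 22393 in DBA/2J. By sign, 9 fibroblast markers were lower and 3 higher. An unadjusted limma p under 0.05 was found for 3 of them: Tcf21, which was higher, and Col1a1 (-0.43) and Postn (-0.37), which were lower. The smooth muscle and pericyte markers differed in direction, with 9 lower and 3 higher in sign. Of the 3 with an unadjusted limma p under 0.05, the contractile genes Tagln and Cnn1 had -0.44 and -0.71, and Pdgfrb, a receptor of pericytes, had 0.64. The pericyte markers Rgs5 and Kcnj8 had 0.36 and 0.50, while Cspg4, also of pericytes, had -0.31.

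Skeletal muscle markers were far lower in DBA/2J: 11 of 11 tested fell, and their summed signal was 51017 to 122550 on A/J arrays and 983.9 to 2681 on DBA/2J arrays. Adipocyte markers summed to 61848 to 88182 on A/J arrays and 36157 to 53235 on DBA/2J arrays, with 2 of 6 falling. The endothelial sum was 9403 to 10528 on A/J arrays and 10685 to 15195 on DBA/2J arrays, with 0 of 10 passing in limma and 3 at an unadjusted p under 0.05. The type I cell sum was 39936 to 48313 on A/J arrays and 80295 to 86536 on DBA/2J arrays. Schwann and type II cell markers summed to 27026 to 36079 and 18708 to 26303 (0 of 6 passing in limma, 3 at an unadjusted p under 0.05), and macrophage markers to 30756 to 32730 and 20558 to 30880 (0 of 8, and 3). Of 6 cartilage markers 1 rose (Hapln1, log2 difference 1.80) and 0 fell, and the sums overlapped. By sign, 3 were higher and 3 lower. An unadjusted limma p under 0.05 was found for 3: Hapln1, and Col9a1 (-0.69) and Col11a1 (-0.87), which were lower on every DBA/2J array. The part of the cell type markers in the Fbln2, Fbln7 and Itgb3 differences was not tested. A/J arrays 1 and 3 carried the most skeletal muscle signal. Without both of them the log2 differences of Fbln2, Fbln7 and Itgb3 were 1.05, 1.11 and -2.23. This leaves 1 A/J array, which a test has to assume varies like the DBA/2J arrays. That array, A/J array 2, still had a skeletal muscle sum of 51017, against at most 2681 in DBA/2J. The muscle difference between the strains therefore remained, and these values cannot separate it from strain.

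**Figure D4:**
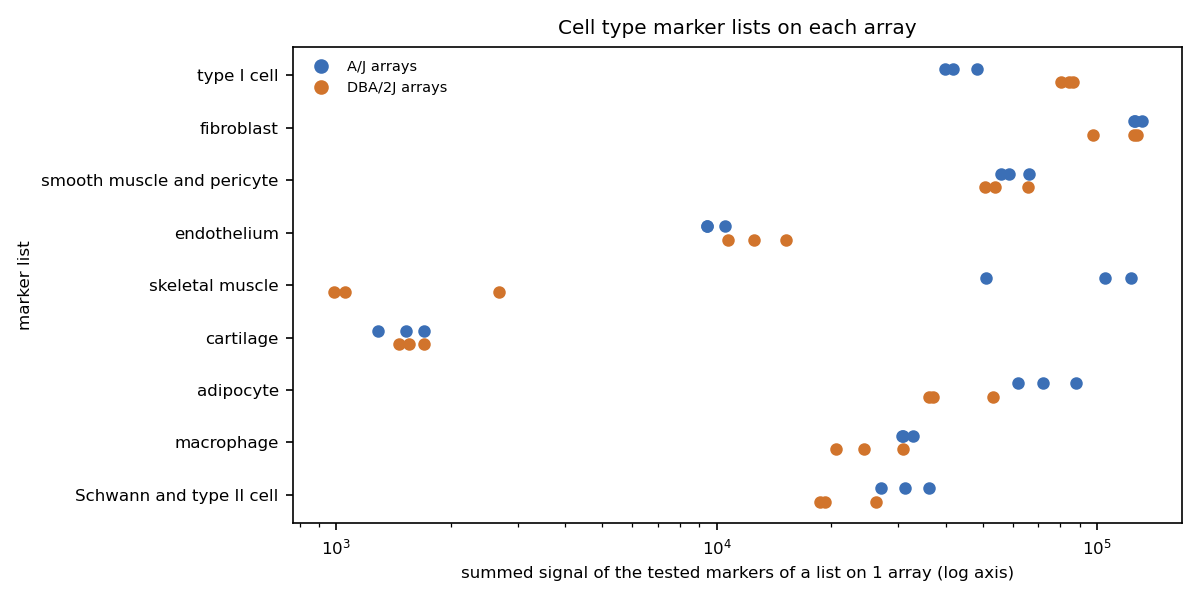
Summed signal of the tested markers of each cell type list on each array (log axis), A/J in blue and DBA/2J in orange. The strains are apart for skeletal muscle (at least 51017 against at most 2681) and the type I cell (at most 48313 against at least 80295), and overlap for fibroblast and smooth muscle markers.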

How the data were processed

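The authors' deposited values are linear intensity signals per probe set of 1-colour Affymetrix arrays, already scaled to a common level, since the 2%-trimmed mean of every array was 500.0. Which software made them is not stated in any source used here. Per the labels' protocols, Trizol RNA was amplified in repeated rounds from the poly(A) tail, which can lower the signal of probes distant from the 3′ end.

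Values were used without further normalization, as the array medians differed by at most 1.12-fold, under a limit of 1.25. The 64 control probe sets were left out. Probe sets in the upper 60% by mean log2(signal + 16) were tested (27022) in R 4.3.3 with limma 3.58.1 (lmFit and eBayes with an intensity trend, no covariate, two-sided), and figures were drawn with matplotlib 3.10.9. For genes, the brightest probe set stood for the gene (13006 genes), with p adjusted over all tested probe sets. An exact permutation test of 3 arrays against 3 cannot go below 0.1 and was not used. Names come from the platform annotation, brought up to date by gene identifier through RefSeq. Of 45101 probe sets, 34958 had 1 gene (34754 matched to RefSeq), 932 several, and 9211 are not listed there. Promoters came from RefSeq (GRCm38.p6), where 6 of the 10 genes and Fbln7 had an entry. The procedure was tested on simulated data.

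Named genes are all member probe sets, the called genes of the pathway lists and the 2 genes with the smallest adjusted p in each list. The members and lists were chosen with earlier results of these data known. Alternatives were quantile normalization, median scaling, a pseudocount of 1 or 64, no dim filter or the upper 40%, no trend, array weights, the mean of a gene's probe sets, each array left out, the number shared by some titles as a block, both A/J arrays 1 and 3 left out, and the rule the series states (6 of 9 array pairs at 1.5-fold with a p under 0.05, here limma's unadjusted p).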

Additional observations from a re-analysis of the deposited data

How the results depend on the processing

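The count of member probe sets called, 1 in the report, was 2 with quantile normalization (Fbln2 and Fbln5), 2 with a pseudocount of 64 (Fbln2 and the dim Fbln5 probe set), 2 with no filter (the 2 Fbln2 probe sets, in opposite directions), 3 with array weights (Fbln2 and both of Fbln5) and 2 by the series' own rule. It was 0 with the title number as a fixed replicate block and 0 without both A/J arrays 1 and 3, with 4 at an unadjusted limma p under 0.05 in each. Leaving out 1 array gave 0 to 1. Without an intensity trend the count was 1, but the probe set called was the dim one of Fbln5. The count of member genes, 1, was 2 with quantile normalization, with array weights and with the mean of a gene's probe sets. It was 0 with no intensity trend, with the fixed block and without both A/J arrays (3, 2 and 3 at an unadjusted p under 0.05), and 0 to 1 with 1 array left out. The 2 pathway genes became 0 with the fixed block and 0 without both A/J arrays (3 and 4 at an unadjusted p under 0.05), and 0 to 3 with 1 array left out. The causes of these changes were not tested. Where arrays were left out, fewer arrays were also compared. The count of all probe sets called was 1338 without DBA/2J array 2 and 345 without DBA/2J array 1, against 883.

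Whether the title number pairs the arrays cannot be told from these data. Deviations from the strain means of the same-numbered arrays correlated at -0.26 and 0.035 over probe sets. For arrays with different numbers the correlations ran from -0.26 to 0.20. With 3 arrays per strain these correlations also depend on one another. The fixed block called 0 of all 27022 probe sets, with 1955 at an unadjusted p under 0.05, and the random block changed no call named here. Over all alternatives the count of all probe sets ran from 0 to 3007, against 883.

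Directions that turned belonged to differences that did not pass. Without both A/J arrays 1 and 3, Fbln1 1439688_at had 0.22, Efemp1 -0.12, Mfap4 0.14, Loxl3 0.35 and Ltbp3 -0.22. With the fixed block Lox had -0.014, Loxl3 0.11 and Ltbp3 -0.040, and with array weights Fbn2 had 0.030. Leaving out 1 array gave ranges of -0.20 to 0.018 for Fbln1 1439688_at, -0.60 to 0.046 for Fbn2, -0.32 to 0.21 for Mfap4, -0.047 to 0.26 for Mfap5 1449082_at, -0.40 to 0.058 for Loxl3 and -0.33 to 0.063 for Tgfb1. The scaling alternatives moved the median of all genes by less than 0.1.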

Other observations

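The tested genes next to the fibulins on their chromosomes, 3 on each side, were chosen by position. Beside Fbln2, on chromosome 6, Nup210, a nuclear pore protein, had a log2 difference of 0.95 (limma adjusted p = 0.204) and Chchd4, of mitochondrial protein import, 0.85 (limma adjusted p = 0.0592), both higher on every DBA/2J array. The gene 1810044D09Rik, also beside Fbln2, had -0.25 and was lower on every DBA/2J array. Hdac11, next to Fbln2 on one side, had -0.45, and Wnt7a, next to it on the other, -0.09. Beside Fbln7, on chromosome 2, the 6 neighbours ran from -0.74 (Tmem87b) to 0.41 (Ttl). Ttl was higher on every DBA/2J array. Of the 12 neighbours, 0 passed in limma, and 2 had an unadjusted limma p under 0.05, beside 17.1% of all genes. The arrays did not overlap in 3 neighbours that were higher and 1 that was lower, beside 13% and 9.69% of all genes.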
